A study of Homo sapiens with 3 samples.

Results

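The 9 genes described here encode enzymes of the tricarboxylic acid (TCA) cycle: CS, IDH2, IDH3A, IDH3B, OGDH, SUCLA2, SUCLG1, FH and MDH2. They were chosen by name, as 9 of 19974 protein-coding genes on chromosomes 1 to 22 and X. The rule used no MYC value, but the choice was made with earlier results of these data known. A MYC peak was assigned to a gene where its summit, the position of highest enrichment, lay inside the annotated gene or within 5000 bp of it, and genes without such a peak were kept. This gave 8 of the 9818 peaks in the list. The peaks come from parental U2OS cells, a human osteosarcoma line, profiled by ChIP-Rx, in which chromatin of another species is added before immunoprecipitation as a reference. The MYC group comprised 2 libraries immunoprecipitated with an anti-MYC antibody from U2OS chromatin, which the series design calls biological replicates. The series also holds 1 input library, without antibody, from the same cells; whether it served as the control of the peak calls is not stated in the sources used here. Every library held added mouse NIH3T3 chromatin, and no label names a treatment or a genetic change.

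The TCA cycle runs in the mitochondrial matrix, where it oxidises acetyl groups to carbon dioxide, passes electrons to the respiratory chain and supplies precursors for amino acids, lipids and nucleotides. Citrate synthase starts it, dehydrogenases remove carbon dioxide, succinyl-CoA ligase makes a nucleoside triphosphate, and fumarase and malate dehydrogenase return the carbon to oxaloacetate. MYC binds DNA as a partner of MAX, preferring the E-box CACGTG, and occupies many active promoters, among them genes of mitochondrial metabolism.

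A MYC summit lay within 1000 bp of an annotated end of 7 of the 9 enzyme genes, beside 37.6% of all protein-coding genes. At SUCLG1 the summit was nearer to an end of DNAH6, and MDH2 shares its peak with STYXL1. MDH2 and CS carried the highest peaks, at folds of 14.9 and 14.1, IDH3A, OGDH and FH stood near the middle of all bound genes, and IDH2 and SUCLG1 were lower. IDH3B and SUCLA2 had no peak. All folds are the authors' deposited enrichment of IP over control at the summit, a linear ratio, and the −log10 q-values are theirs as well. The list is a single one for the whole experiment, so no value below has a replicate error, no test between genes was possible, and the order of neighbouring genes cannot be set against any spread. The read depth behind the values is unknown.

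The stretches below show the annotated promoter of the genes with the highest folds, of the gene with the lowest fold among those with a peak, and of both genes without a peak. Each runs 5′ to 3′ from 250 bases before to 50 bases after the annotated start (RefSeq, GRCh38.p14), and capitals mark any match to CANNTG, the general E-box, or to CACGCG, a variant E-box, on either strand.
MDH2, chr7:76047856-76048155, plus strand: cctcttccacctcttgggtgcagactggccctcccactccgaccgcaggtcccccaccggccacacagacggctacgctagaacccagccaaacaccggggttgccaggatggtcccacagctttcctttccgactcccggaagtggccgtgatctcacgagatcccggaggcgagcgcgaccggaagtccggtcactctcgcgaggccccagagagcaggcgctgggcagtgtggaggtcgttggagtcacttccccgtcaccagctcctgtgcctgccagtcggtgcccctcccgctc
CS, chr12:56300281-56300580, minus strand: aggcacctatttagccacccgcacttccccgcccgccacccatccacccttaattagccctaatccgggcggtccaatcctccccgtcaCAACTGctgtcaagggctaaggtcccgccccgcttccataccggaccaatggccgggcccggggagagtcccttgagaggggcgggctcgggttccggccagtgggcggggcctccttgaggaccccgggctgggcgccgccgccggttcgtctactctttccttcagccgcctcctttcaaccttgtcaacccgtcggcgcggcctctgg
SUCLG1, chr2:84459231-84459530, minus strand: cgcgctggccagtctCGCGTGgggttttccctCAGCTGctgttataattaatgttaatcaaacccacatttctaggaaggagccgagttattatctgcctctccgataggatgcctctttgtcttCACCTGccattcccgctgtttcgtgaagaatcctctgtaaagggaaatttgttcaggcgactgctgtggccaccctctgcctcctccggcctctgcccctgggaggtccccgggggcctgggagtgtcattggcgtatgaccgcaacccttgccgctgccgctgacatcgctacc
IDH3B, chr20:2664167-2664466, minus strand: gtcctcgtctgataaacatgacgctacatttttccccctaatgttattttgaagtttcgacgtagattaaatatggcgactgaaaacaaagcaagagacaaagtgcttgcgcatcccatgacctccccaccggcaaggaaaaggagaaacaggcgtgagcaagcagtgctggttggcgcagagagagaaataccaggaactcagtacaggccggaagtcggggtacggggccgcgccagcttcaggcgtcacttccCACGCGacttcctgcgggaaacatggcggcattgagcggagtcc
SUCLA2, chr13:48001224-48001523, minus strand: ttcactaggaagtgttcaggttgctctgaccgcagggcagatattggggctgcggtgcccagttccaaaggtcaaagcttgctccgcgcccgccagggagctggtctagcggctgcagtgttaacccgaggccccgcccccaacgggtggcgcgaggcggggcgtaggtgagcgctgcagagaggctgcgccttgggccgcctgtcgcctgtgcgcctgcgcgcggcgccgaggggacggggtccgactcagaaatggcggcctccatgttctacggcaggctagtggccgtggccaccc

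A gene is called bound here if the distance from a summit to one of its annotated ends was at most 1000 bp. By this measure 7 of the 9 enzyme genes were bound, whereas 37.6% of all protein-coding genes were. By the wider measure, a summit inside the gene or within 5000 bp, the same 7 genes had a peak, and 47.7% of all protein-coding genes did. The median fold of the 7 bound enzyme genes was 9.09 (4.94 to 14.9), and that of all 7510 bound protein-coding genes was 8.31, with quartiles of 5.87 and 12.6. Above that median stood 5 of the 7, and 2 lay below it. Their median −log10 q was 73.9 against 55.9 over all bound genes, and their median peak width was 880 bp against 828 bp. The median fold and width of the 7 lay within the quartiles of all bound genes, which for width were 616 and 1092 bp. Not every gene did. By fold MDH2 and CS lay above the upper quartile and SUCLG1 below the lower. By width CS lay above, and IDH2 and SUCLG1 below.

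**Figure D1:**
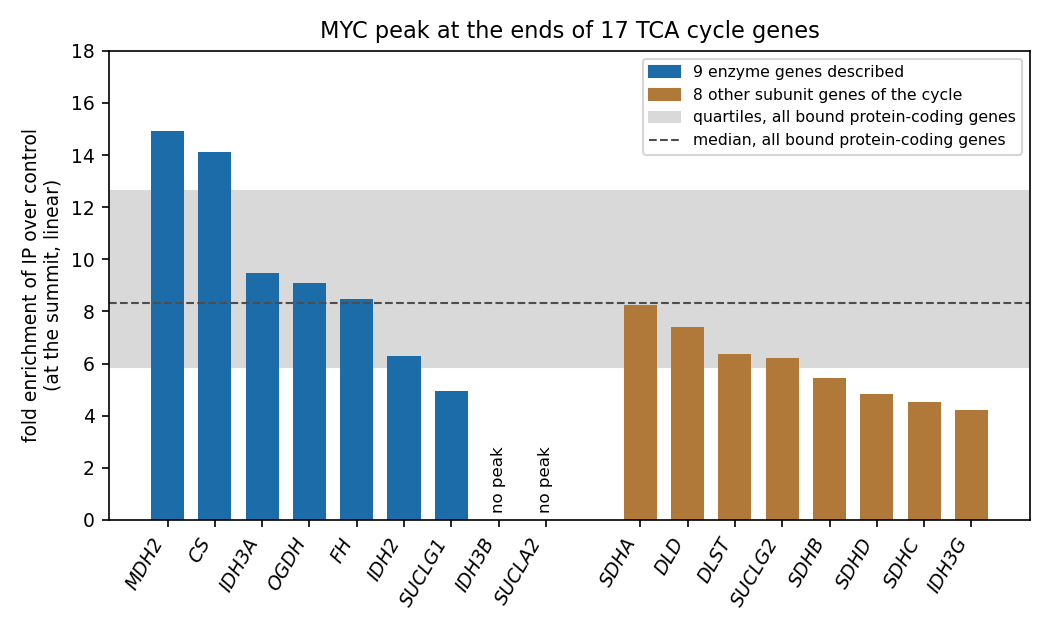
Fold enrichment of MYC IP over control (linear, from the authors' list) for the peak at the ends of 17 TCA cycle genes; blue bars are the 9 enzyme genes described and brown bars the 8 other subunit genes of the cycle, with the median (dashed, 8.31) and quartiles (grey, 5.87 to 12.6) of all bound protein-coding genes. MDH2 and CS stand above the grey band, SUCLG1, SDHB, SDHC, SDHD and IDH3G below it, and IDH3B and SUCLA2 have no peak.

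CS encodes citrate synthase, which joins acetyl-CoA to oxaloacetate in the first step of the cycle. Its gene is annotated on chromosome 12 from 56271699 to 56300330 on the minus strand, and 2 peaks met the rule. The peak at its start ran from 56299678 to 56300880, was 14.1-fold enriched with a −log10 q of 129, and was the widest of the set at 1203 bp. Its summit lay 317 bp inside the gene, and the nearest end of another gene, that of CNPY2, was 9831 bp away. Its fold exceeded that of 80.1% of bound protein-coding genes. The second peak, from 56266826 to 56267209, was 5.87-fold enriched, with a −log10 q of 30.5. It lay beyond the far end of CS, 4595 bp from it, but only 162 bp from an end of COQ10A, a gene for a coenzyme Q-binding protein. It was thus assigned to CS by the 5000 bp rule alone and was the assigned summit closest to that limit.

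Isocitrate is oxidised by 2 kinds of mitochondrial enzyme, the NADP-dependent IDH2 and the NAD-dependent IDH3 built from alpha, beta and gamma subunits. The IDH2 peak was on chromosome 15 from 90102034 to 90102571, with a fold of 6.31, a −log10 q of 38.6 and a width of 538 bp. Its summit lay 2 bp outside the outermost annotated end of IDH2 at 90102468 and 338 bp from an end of the long noncoding RNA gene IDH2-DT. The promoter table lists another IDH2 start, at 90100621, 1849 bp from this summit, so its sequence does not cover the peak and is not shown. IDH2 was the second lowest of the 7, and its fold exceeded that of 29.6% of bound genes.

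The 3 subunit genes of IDH3 differed in the list. IDH3A, the catalytic alpha subunit, had a peak on chromosome 15 from 78149086 to 78149872, with a fold of 9.49, a −log10 q of 73.9 and a summit 91 bp inside the gene. An end of the noncoding gene LOC124903534 was 234 bp from that summit. IDH3B, the beta subunit, had no peak by the rule. IDH3G, the gamma subunit gene on chromosome X, which belongs to the other subunits of the cycle, was 4.23-fold enriched, at a −log10 q of 22.1, and its summit stood 224 bp outside the gene. The IDH3A fold was 2.24 times that of IDH3G.

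IDH3B lies on chromosome 20 from 2658395 to 2664216 on the minus strand. The summit nearest to it was 5382 bp from its far end, just outside the 5000 bp limit, and 11203 bp from its annotated start. That summit belonged to a peak from 2651604 to 2653383 whose fold was 24.7 and whose −log10 q was 391, higher than any peak at the 7 bound enzyme genes. It stood 381 bp from an end of NOP56, a core protein of the small nucleolar ribonucleoproteins that guide ribosomal RNA methylation. The nearest base of this peak was 5012 bp from IDH3B. It was the only summit within 100000 bp of either end of IDH3B.

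OGDH encodes the first component of the 2-oxoglutarate dehydrogenase complex, which converts 2-oxoglutarate to succinyl-CoA. Its peak lay on chromosome 7 from 44606387 to 44607266, with a fold of 9.09, a −log10 q of 88.3 and a width of 880 bp. The summit was 420 bp inside the gene, the farthest from an end among the 7 bound enzyme genes, and no other gene end was closer than 24816 bp, that of TMED4. By fold it was the middle gene of the 7. The other components of the complex, DLST and DLD, had folds of 6.36 and 7.39, with summits 110 bp outside and 281 bp inside their genes.

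Succinyl-CoA ligase pairs the alpha subunit SUCLG1 with a beta subunit, either SUCLA2 in the ADP-using form or SUCLG2 in the GDP-using form. SUCLG1 had the lowest fold of the bound enzyme genes, 4.94, with a −log10 q of 23.9 and a width of 522 bp. Its peak lay on chromosome 2 from 84459088 to 84459609, and the summit stood 228 bp outside the gene, nearer to an end of DNAH6, an axonemal dynein gene, at 64 bp. The peak can therefore not be attributed to one of the pair. SUCLA2, on chromosome 13 from 47942656 to 48001273, had no peak, and the summit nearest to it was 36478 bp away, on the side of its annotated start. SUCLG2, the alternative beta subunit gene, was 6.21-fold enriched (−log10 q 34.5), with a summit 59 bp inside the gene. Of the 3 ligase genes, SUCLG2 thus had a peak with its summit inside the gene, SUCLG1 shared its peak with DNAH6, and SUCLA2 had none.

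FH encodes fumarase, which hydrates fumarate to malate. Its peak on chromosome 1 from 241519100 to 241519986 had a fold of 8.48, a −log10 q of 56.1 and a summit 111 bp inside the gene. The nearest end of another gene, that of KMO, was 12734 bp away, and the peak was the only one with a summit within 100000 bp of either end of FH. Its fold exceeded that of 51.2% of bound genes, so it stood at the middle of the distribution.

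MDH2 encodes mitochondrial malate dehydrogenase, which closes the cycle by making oxaloacetate. It had both the highest fold of the set, 14.9, and the highest −log10 q, 198, which ranked 804 among the 9818 peaks. The peak ran from 76047671 to 76048615 on chromosome 7, with a summit 173 bp inside the gene. An end of STYXL1, a gene for a phosphatase-like protein, lay 279 bp from the same summit, so MDH2 and STYXL1 share the peak. The MDH2 fold exceeded that of 82.4% of bound genes and was 3.02 times that of SUCLG1.

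**Figure D2:**
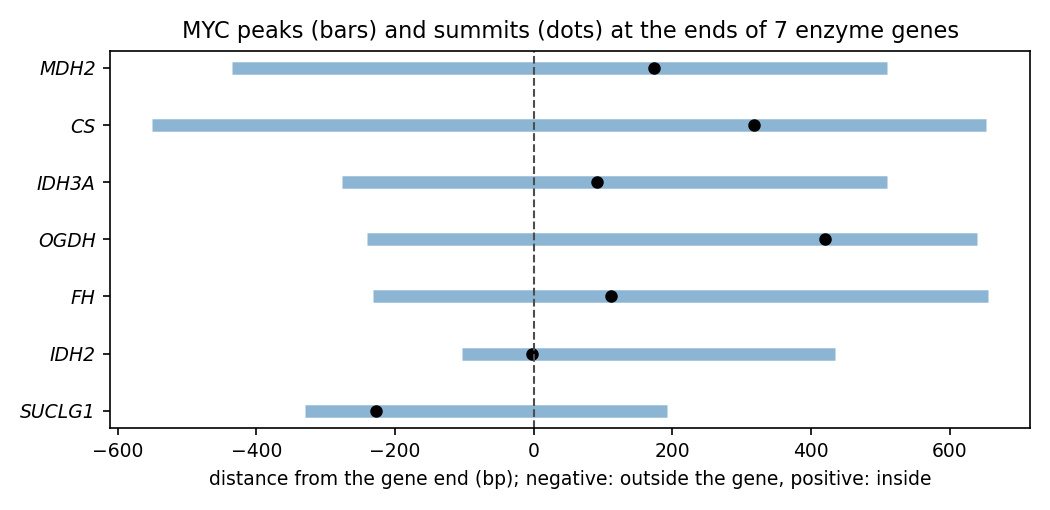
Extent of each MYC peak (bars) and its summit (dots) in bp from the nearest annotated end of 7 enzyme genes, with positive distances inside the gene, ordered by fold from MDH2 at the top to SUCLG1. Every peak spans the gene end, and summits range from 228 bp outside (SUCLG1) to 420 bp inside (OGDH).

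The 7 peaks at gene ends shared their placement. Each spanned the annotated end, and the summits lay 2 to 420 bp from it, at a median of 173 bp, beside 163 bp over all bound genes. For the 6 of them with a listed strand, the end was the upstream one by that strand. At IDH2 the start in the promoter table is another one, 1849 bp from the summit. The summit was inside the gene in 5 of 7 enzyme genes, at MDH2, CS, IDH3A, OGDH and FH, and outside it at IDH2 and SUCLG1. These 5 genes were also the ones with the higher folds. That order did not hold among the 8 other subunit genes, with 2 summits inside and 6 outside. There SDHA had the highest fold, 8.24, with its summit outside. Over all bound protein-coding genes the summit lay inside the gene in 47.2%. Another protein-coding gene had an end within 1000 bp of the summit at MDH2 and SUCLG1, and a noncoding gene at IDH2 and IDH3A. In the whole list 32.1% of bound protein-coding genes shared their peak with another.

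The promoter table held 8 of the 9 enzyme genes and not OGDH. None of these 8 windows contained CACGTG, which occurred in 8.32% of the 22012 promoter windows of protein-coding genes. It occurred in 11.9% of windows with a summit within 1000 bp of the start and in 6.17% of windows without one. CANNTG was present in 4 of the 8 (CS, IDH2, SUCLG1 and FH), beside 65.1% of all windows. Its share was 57.6% in windows with a summit within 1000 bp of the start and 69.6% in windows without one. The matches were centred 1618.5 to 1739.5 bp from the summit at IDH2, 475.5 bp at CS and 200.5 bp at FH. CACGCG was present in 2 of the 8 (SUCLG1 and IDH3B), beside 14.2% of all windows. Its share was 21.3% in windows with such a summit and 9.95% in windows without one. CACGCG was added after seeing the data. Its match at SUCLG1, read as CGCGTG on the strand shown, was centred 4.5 bp from the summit, which is nearer to an end of DNAH6. A CAGCTG match was centred 12.5 bp from the same summit. The CACGCG match of IDH3B lay at its annotated start, where the list has no peak. MDH2, with the highest fold, had no match to any of the 3 motifs in its window.

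The windows cover these peaks only in part. At MDH2, CS, IDH3A and FH the summit lay 91 to 317 bp downstream of the annotated start, beyond the end of the window, although the peak covered all 300 bases of the window at MDH2, CS and IDH3A and 281 of them at FH. Of the bound genes with a window, SUCLG1 alone had its summit in it. In base composition the 8 windows had a median GC content of 61.5% and 21.5 CpG dinucleotides, beside 62.3% and 21 over all windows, and 66.3% and 28 over windows with a summit within 1000 bp. These 8 include the genes without a peak and IDH2, whose window (48.3% GC, 6 CpG) lies away from its peak. Their median therefore does not describe the bound promoters. The windows of the genes without a peak held 53.3% GC and 20 CpG at IDH3B and 68.3% GC and 28 CpG at SUCLA2. At the 5 genes with a peak at the listed start, GC content was 54.0% at FH, 56.3% at SUCLG1, 66.7% at MDH2, 67.3% at CS and 70.0% at IDH3A. Their CpG count ran from 15 at FH to 30 at IDH3A. IDH3B lay just below their lowest GC content.

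A further 8 subunit genes of the cycle, IDH3G, DLST, DLD, SUCLG2 and SDHA to SDHD, were all bound, beside the 37.6% of all protein-coding genes. Their folds had a median of 5.82 (4.23 to 8.24), and 0 of the 8 were above the median of all bound genes. DLD was highest by −log10 q, at 58.9. SDHA was highest by fold but lowest of the 8 by −log10 q, at 16.4, and its peak, 398 bp wide, lay wholly outside the gene. The 4 subunit genes of succinate dehydrogenase, which is also complex II of the respiratory chain, had folds of 8.24 for SDHA, 5.44 for SDHB, 4.52 for SDHC and 4.82 for SDHD. At SDHA the summit was nearer to CCDC127 and at SDHD to TIMM8B, a mitochondrial import chaperone gene. Together 15 of these 17 cycle genes were bound, with a median fold of 6.36, and IDH3B and SUCLA2 were the exceptions.

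**Figure D3:**
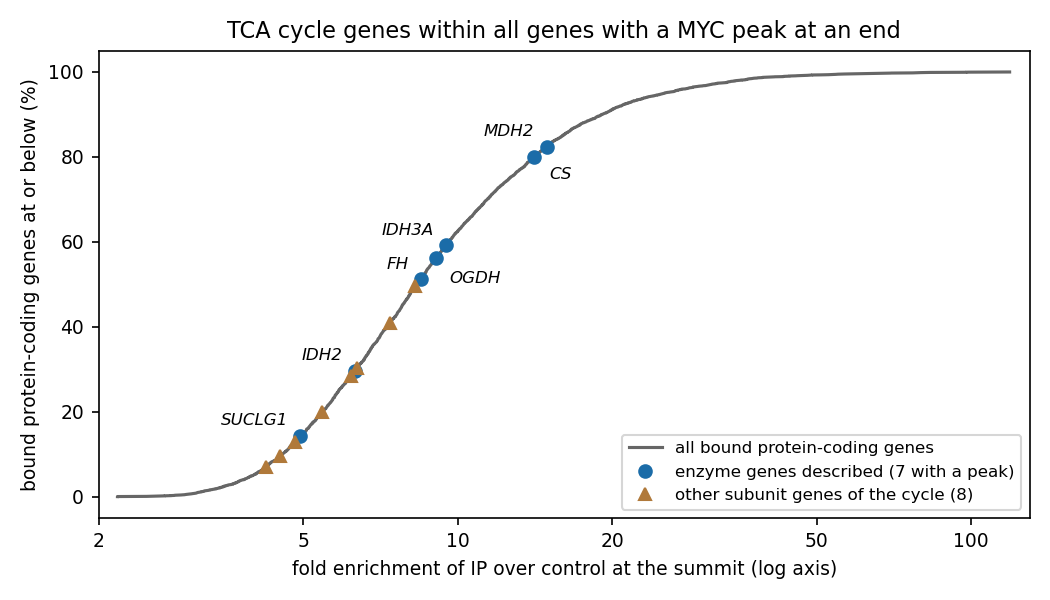
Percentage of all 7510 bound protein-coding genes (grey line) at or below each fold enrichment of IP over control (log axis), with the 7 enzyme genes that have a peak (blue circles, named) and the 8 other subunit genes of the cycle (brown triangles) marked. The enzyme genes run from SUCLG1 (above 14.3% of bound genes) to MDH2 (above 82.4%).

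With the stronger 50% of peaks by −log10 q, 5 of the 9 enzyme genes were bound (MDH2, CS, IDH3A, OGDH and FH), beside 21.3% of all protein-coding genes, and 1 of the 8 other subunit genes was (DLD). With a limit of 500 bp the same 7 were bound, beside 33.0% of all protein-coding genes. By the annotated start alone, 5 of the 8 enzyme genes in the promoter table were bound, beside 39.6% of the protein-coding genes in it, and IDH2, whose listed start is another one, was not among them. Counting each peak only for the nearest gene end removed SUCLG1 and left 6 enzyme genes. Widening the limit around the gene to 10000 bp added IDH3B, by the NOP56 peak. No share over all protein-coding genes is available to set beside either of these last counts.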

How the data were processed

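Parental U2OS cells gave 2 MYC IP libraries and 1 input library. The single file used is the authors' deposited peak list, whose name gives hg38. Per the submitters' processing notes, cutadapt, Bowtie2, SAMtools, Picard and MACS2 were used, with the builds hg19, mm10 and hg38. The sources used here name no versions or settings, and do not say how mouse reads entered the scaling or whether IP libraries were pooled. The deposited list holds the authors' fold enrichment, a linear ratio, with a −log10 q-value for each summit, and a score that is within 1 of the −log10 q-value multiplied by 10 and cut to a whole number. Fold and −log10 q-value were used only to describe, rank or filter peaks within the list.

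Gene spans, strands and promoter sequences came from RefSeq (GRCh38.p14). All 9 enzyme genes matched by symbol in the gene table and 8 in the promoter table. The strongest peak by −log10 q represents a gene. The assignment was tested on simulated data. Scripts ran in Python 3.11.15 with pandas 2.3.3. No set test or test between genes was run. The text names all 9 enzyme genes with each of their peaks, the listed other subunit genes of the cycle, genes with an end near a peak, and the 3 strongest bound genes of each further list. Some genes of the lists and near the peaks are not reported here and enter no list count. Unbound genes of pyruvate entry and of the list of cytosolic counterparts and side entries are also named, chosen after their values were seen. Members and lists were chosen with earlier results of these data known, and CACGCG was added after seeing the data.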

Additional observations from a re-analysis of the deposited data

How the results depend on the processing

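The 7 bound enzyme genes and the 8 other bound subunit genes stayed at 7 and 8 with windows of 500 and 5000 bp, a −log10 q of at least 10, and any base of the peak. At these settings, in the same order, 6601, 8787, 7440 and 7842 of 19974 protein-coding genes were bound. With the stronger 50% of peaks, 5 enzyme genes (median fold 9.49), 1 other subunit gene and 4248 protein-coding genes were bound. By the annotated start alone, 5 of 8 listed enzyme genes were bound (median fold 9.49), IDH2 being lost to another annotated start. So were 7 of 7 listed other subunit genes. Both counts stand beside 6261 of 15812 listed protein-coding genes (39.6%). In place of CACGTG, found in 0 of 8 windows, CANNTG gave 4 and CACGCG 2. Over all promoter windows the shares were 8.32%, 65.1% and 14.2%, in the same order. No paired analysis was possible because the list holds no value per library, and for the same reason no replicate could be left out. Depth is unknown, so a gene without a peak is one without a listed peak, not one shown to lack MYC.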

Other observations

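Of 14 genes of pyruvate entry and its control 9 were bound, with a median fold of 9.85, led by −log10 q by DLAT, a pyruvate dehydrogenase component (fold 10.6), and the mitochondrial pyruvate carrier genes MPC1 (13.7) and MPC2 (13.7). The 5 not bound at a gene end, named after their values were seen, were PDPR, a regulator of pyruvate dehydrogenase phosphatase, and the kinase genes PDK1, PDK2, PDK3 and PDK4. By the wider measure, a summit inside the gene or within 5000 bp, 10 of the 14 had a peak, so these 5 do not all lack one. All 3 lipoate attachment genes were bound, at folds of 21.8 for LIAS, 14.2 for LIPT1 and 12.5 for LIPT2. Lipoate is the cofactor of DLAT and DLST.

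Among 16 cytosolic counterparts and side entries 11 were bound, with a median fold of 9.61. SLC25A10, the dicarboxylate carrier (29.3), GLUD1, glutamate dehydrogenase (16.8), and MDH1, cytosolic malate dehydrogenase (11.3), had the highest −log10 q. IDH1, OGDHL, ME3, ACLY and SLC25A1 were not bound at a gene end. By the wider measure 14 of the 16 genes had a peak, so some of these have one inside the gene or within 5000 bp. Glycolysis had 12 of 17 genes bound at a median fold of 13.0, with ENO1 (59.3), LDHB (53.1) and GAPDH (22.2) highest by −log10 q, and respiratory complex I had 28 of 37 at 9.59, with NDUFS1 (fold 26.7), NDUFB9 (14.0) and NDUFV2 (13.3) highest by −log10 q, though other members have higher folds than NDUFB9 and NDUFV2. By the wider measure 15 glycolysis genes and 29 complex I genes had a peak. The bound counts stand beside 37.6% over all protein-coding genes, and those by the wider measure beside 47.7%. All are descriptions, and no difference between lists was tested.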
